A study of Homo sapiens with 6 samples.

Results

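The 8 genes described here encode 7 receptors that bring cargo to the autophagosome, SQSTM1, OPTN, NBR1, TAX1BP1, CALCOCO2, TOLLIP and WDFY3, and TBK1, the kinase that acts on several of them. They were chosen by name, as the rows of the deposited gene tables whose Ensembl identifiers carry these symbols, so 8 of the 61496 features of the table are considered. The cells were U251, an established human glioma cell line kept in DMEM with 10% FBS. There were 3 libraries of untreated cells (control) and 3 of cells exposed to the volatile anesthetic sevoflurane (Sev) for 2 h, and the comparison asks what Sev does to the transcriptome of these cells. The labels give no Sev concentration for the single library and do not say whether the libraries of a group came from separate cultures, so p-values measure the spread between these libraries.

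Selective autophagy removes particular cargo, such as protein aggregates, damaged mitochondria or bacteria, that has been marked for removal, often with ubiquitin. A cargo receptor binds the mark on one side and a lipid-anchored ATG8 protein (the LC3 and GABARAP families) in the growing membrane on the other, and so ties the cargo to the membrane that encloses it. TBK1 gathers at ubiquitin-marked cargo and phosphorylates receptors such as OPTN and SQSTM1, which raises their affinity for ubiquitin or for ATG8 proteins, and in innate immunity the same kinase activates the transcription factor IRF3. In glioma cells, as in other cells, SQSTM1 is also a substrate of autophagy, so its protein level depends on its removal as well as on its mRNA. The libraries measure mRNA and give no protein level.

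Each library held between 38624292 and 46318311 counts. The glial and glioma line markers GFAP, VIM, NES, S100B, SOX9 and CD44 were all detected in both groups, at 7461 to 8372 CPM (counts scaled to a common library total, with TMM normalization) summed over the list in control libraries and 8613 to 9102 CPM in Sev libraries. Most of this sum was VIM and NES, and here too every Sev sum lay above every control sum. Within that list CD44 rose from a mean of 385 to 755 CPM, and S100B fell from 22.15 to 10.34 CPM. The 8 markers of other cell types summed to 7.62 to 10.7 CPM in control and 10.8 to 13.6 CPM in Sev libraries, so again every Sev sum lay above every control sum. Of the 5 tested, 1 was called, the endothelial marker PECAM1, which was higher at 0.693 CPM in control and 1.31 CPM in Sev libraries (log2 fold change 0.92, adjusted p = 0.0409). PTPRC, MOG and EPCAM had too few counts to be tested, at most 15 per library. The part of either marker list in the results below was not tested. Of the 27514 features tested, 43.7% were called at an adjusted p-value under 0.05 (edgeR's quasi-likelihood test, two-sided, with Benjamini-Hochberg adjustment over all tested features), 22.1% higher and 21.5% lower in Sev. This test is the source of every adjusted p below unless another is named. Scaling by library size only, in place of TMM, shifted all features by a median of −0.14 on the log2 scale and changed the numbers called from 6094 higher and 5920 lower to 4665 and 7502. Changes are therefore given relative to TMM. For the genes given singly below, calls made with TMM that were lost with library size only are named.

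Sev-treated U251 cells held more SQSTM1, TBK1 and TAX1BP1 mRNA and less NBR1 mRNA, while OPTN, CALCOCO2, TOLLIP and WDFY3 were not called. All 8 genes passed the filter on low counts, and 3 were called higher and 1 lower. That is 50% of the members, beside the 43.7% of all tested features. Features as abundant as the members, with a mean between 24.7 and 535 CPM, were called in 49.9% of 7123 cases, 31.1% higher and 18.8% lower. The control and Sev libraries did not overlap in CPM for 4 of the 8, against 56.5% of all tested features. The share called among the 8 genes is thus near that of the background, and what follows describes single genes. The median log2 fold change of the 8 genes was 0.027, against −0.0056 over all tested features and 0.10 over the features of like abundance. None of the 8 passed the threshold used in the study (absolute log2 fold change above 1 and unadjusted p below 0.05) in edgeR's test, against 23.5% of all features. The same count of 0 came from DESeq2, and 4 of the 8 had an unadjusted p under 0.05. With library size only, the calls were 2 higher and 2 lower, because TAX1BP1 lost its call and CALCOCO2 gained one.

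**Figure D1:**
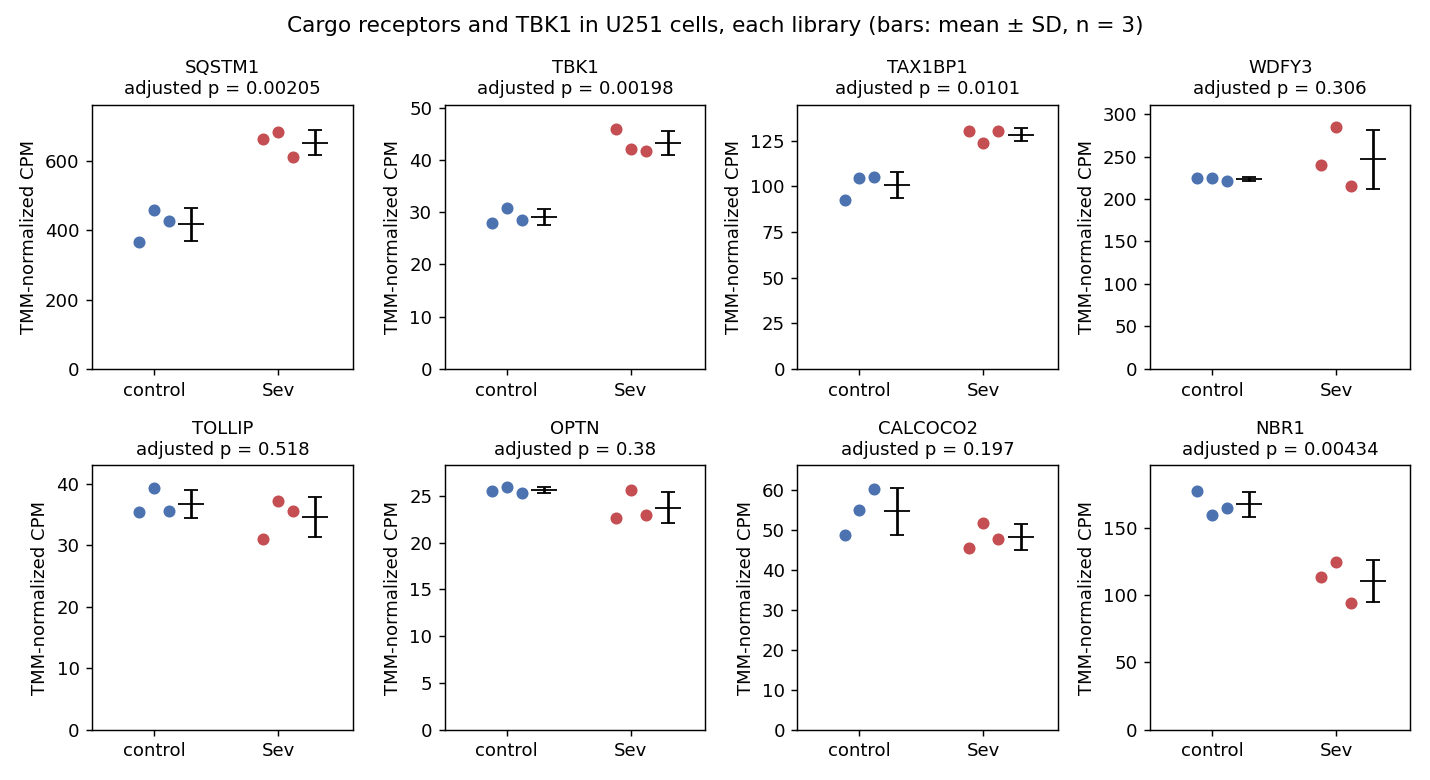
TMM-normalized CPM (vertical axes, each starting at 0) of the 8 genes in the 3 control libraries (blue) and the 3 Sev libraries (red), with the mean ± SD of each group as black bars. SQSTM1, TBK1 and TAX1BP1 lie higher in every Sev library than in any control library, NBR1 lies lower in every Sev library, and the groups of the other genes overlap.

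SQSTM1 (p62, ENSG00000161011, chromosome 5, 179806398 to 179838078, plus strand, GRCh38) was the most abundant of the 8. This receptor binds ubiquitin chains, forms the condensed bodies in which aggregates are collected, and also holds KEAP1, the inhibitor of the antioxidant factor NRF2. It was at 366, 459 and 428 CPM in control replicates 1 to 3 and at 665, 683 and 612 CPM in Sev replicates 1 to 3. The lowest Sev library thus lay well above the highest control library. The mean rose from 418 ± 47.0 CPM (SD, n = 3) to 653 ± 36.8 CPM (SD, n = 3), an edgeR log2 fold change of 0.65 ± 0.10 (standard error; 95% interval 0.41 to 0.88, adjusted p = 0.00205), which is a 1.56-fold increase. The call held in each of the 15 alternative analyses, with log2 fold changes between 0.50 and 0.71. KEAP1 and NFE2L2, the gene of NRF2, were not called, with log2 fold changes of −0.11 (adjusted p = 0.55) and −0.11 (adjusted p = 0.264).

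TBK1 (ENSG00000183735, chromosome 12, 64451880 to 64502108, plus strand), the kinase, rose by a similar factor from a much lower level. It was at 27.9, 30.9 and 28.6 CPM in control replicates 1 to 3 and at 45.9, 42.1 and 41.7 CPM in Sev replicates 1 to 3. No Sev library came near the control range. The mean went from 29.1 ± 1.58 to 43.3 ± 2.32 CPM (SD, n = 3 each), a log2 fold change of 0.57 ± 0.090 (standard error; 95% interval 0.36 to 0.78, adjusted p = 0.00198), or 1.49-fold. This call also held in all 15 alternatives, with log2 fold changes between 0.35 and 0.61.

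TAX1BP1 (ENSG00000106052, chromosome 7, 27739331 to 27844564, plus strand) binds ubiquitin and takes part in the removal of aggregates and bacteria, and it works with the deubiquitinase A20 to restrain inflammatory signaling. Its levels were 92.3, 104 and 105 CPM in control replicates 1 to 3 and 130, 124 and 131 CPM in Sev replicates 1 to 3. The groups did not overlap, and control replicate 1 was the lowest library. The mean rose from 101 ± 7.20 to 128 ± 3.73 CPM (SD, n = 3 each), a log2 fold change of 0.35 ± 0.081 (standard error; 95% interval 0.16 to 0.54, adjusted p = 0.0101). This smaller change depended on the scaling, since with library size only it was 0.21 (adjusted p = 0.0665), and limma on the 3 FPKM settings gave adjusted p-values from 0.0728 to 0.093.

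NBR1 (ENSG00000188554, chromosome 17, 43170481 to 43211689, plus strand) went the other way. It resembles SQSTM1 in its domain order, joins it in the same ubiquitin bodies, and is known for aggregates and peroxisomes as cargo. It was at 178, 160 and 165 CPM in control replicates 1 to 3 and at 114, 125 and 94.1 CPM in Sev replicates 1 to 3. Every Sev library was below every control library, and Sev replicate 3 was the lowest. The mean fell from 167 ± 9.32 to 111 ± 15.6 CPM (SD, n = 3 each), a log2 fold change of −0.59 ± 0.11 (standard error; 95% interval −0.86 to −0.33, adjusted p = 0.00434), or 1.51-fold lower. It was called lower in all 15 alternatives, with log2 fold changes between −0.74 and −0.49.

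The other 4 receptors were not called, and their intervals say how large a change remains possible. OPTN (ENSG00000123240, chromosome 10, 13099449 to 13138308, plus strand), a ubiquitin-binding receptor that TBK1 phosphorylates, was at 25.5, 26.0 and 25.4 CPM in control replicates 1 to 3 and at 22.6, 25.7 and 22.9 CPM in Sev replicates 1 to 3. The control libraries lay close together, and Sev replicate 2 fell among them. Its log2 fold change was −0.11 (95% interval −0.33 to 0.11, adjusted p = 0.38). CALCOCO2 (NDP52, ENSG00000136436, chromosome 17, 48830988 to 48866522, plus strand), a receptor for bacteria and mitochondria, ranged from 48.8 to 60.4 CPM in control libraries and from 45.5 to 51.8 CPM in Sev libraries. These ranges overlap, and the log2 fold change was −0.18 (95% interval −0.42 to 0.061, adjusted p = 0.197). With library size only it was −0.32 (adjusted p = 0.0295), and limma on log2(FPKM + 1) and log2(FPKM + 0.1) called it lower too.

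TOLLIP (ENSG00000078902, chromosome 11, 1274371 to 1309654, minus strand), which binds ubiquitin and endosomal membrane and restrains the interleukin-1 receptor kinase IRAK1, ranged from 35.3 to 39.4 CPM in control libraries and from 31.0 to 37.1 CPM in Sev libraries. The ranges overlap, with a log2 fold change of −0.088 (95% interval −0.32 to 0.15, adjusted p = 0.518). WDFY3 (ALFY, ENSG00000163625, chromosome 4, 84669610 to 84966391, minus strand), a very large scaffold that links SQSTM1 bodies to the autophagy machinery, was at 224, 225 and 222 CPM in control replicates 1 to 3 and at 241, 284 and 216 CPM in Sev replicates 1 to 3. The Sev libraries spread on both sides of the narrow control range. Its log2 fold change was 0.14 (95% interval −0.10 to 0.39, adjusted p = 0.306), and it had no stable sign, since it was −0.0041 with library size only. For OPTN, TOLLIP and WDFY3 none of the 15 alternatives gave a call.

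**Figure D2:**
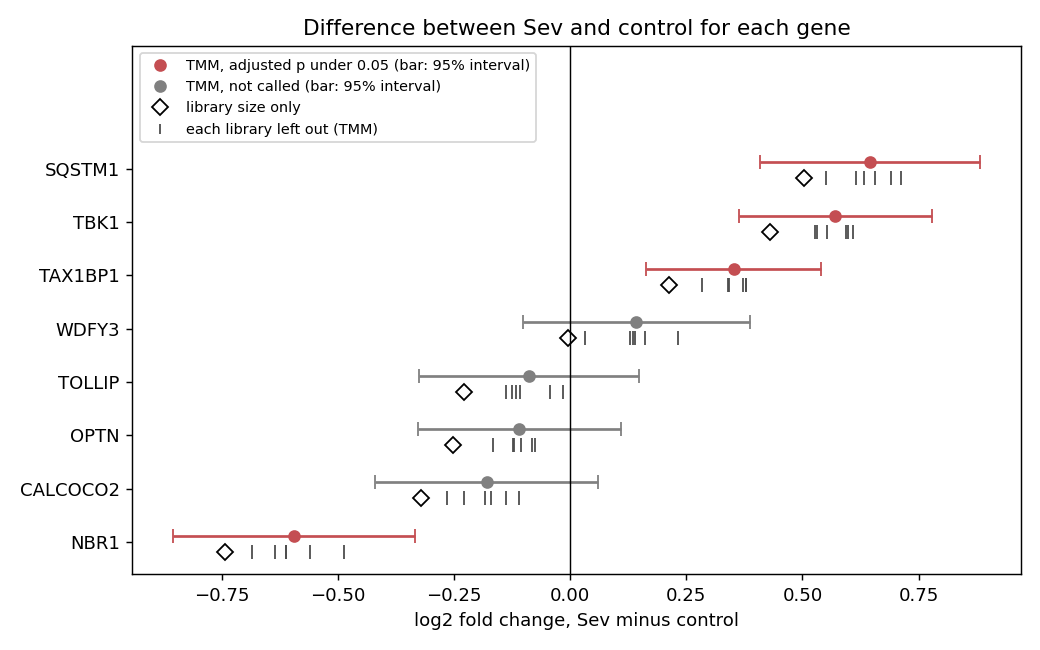
Log2 fold change, Sev minus control (horizontal axis), of each gene with TMM and its 95% interval (circles with bars, red where the adjusted p was under 0.05), with library size only (open diamonds) and with each library left out in turn (short vertical marks). The intervals of SQSTM1, TBK1, TAX1BP1 and NBR1 leave out 0, and the diamonds sit to the left of the circles for all 8 genes.

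Bases from before the RefSeq starts of the called genes are shown, in stretches of different length and distance from the start. They come from the 250 bases before the first RefSeq start listed for each gene on GRCh38.p14, 5′ to 3′ on the strand of the gene. Except for TBK1, each is the longest stretch without bases that GENCODE 29 places in exons of protein-coding genes. GENCODE 29 starts TBK1 further upstream, so that 240 of its 250 bases, and the 30 shown, lie within an annotated TBK1 exon. Capitals mark matches, on either strand, to the GC box GGGCGG and to CACGTG, the E-box core that lies within the CLEAR element of lysosomal genes.
SQSTM1, chr5:179806335-179806392: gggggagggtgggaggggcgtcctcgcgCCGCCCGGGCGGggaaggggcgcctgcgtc
TBK1, chr12:64452077-64452106: ccggccgtcggtCACGTGgcctccggccag
TAX1BP1, chr7:27739123-27739330: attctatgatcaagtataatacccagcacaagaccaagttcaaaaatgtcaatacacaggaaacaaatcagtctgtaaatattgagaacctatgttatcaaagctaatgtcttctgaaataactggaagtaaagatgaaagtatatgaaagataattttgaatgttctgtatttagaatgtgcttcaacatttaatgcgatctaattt
NBR1, chr17:43170246-43170408: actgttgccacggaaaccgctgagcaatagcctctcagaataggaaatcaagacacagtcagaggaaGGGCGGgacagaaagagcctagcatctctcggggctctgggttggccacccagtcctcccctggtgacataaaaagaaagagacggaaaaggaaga

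RefSeq promoters matched 7 of the 8 genes, all but WDFY3, and the 250 bases before each start were searched on both strands. The SQSTM1 window was 75.2% G or C and held 2 GC boxes, while the TAX1BP1 window was 31.2% G or C, lower than all but 2.16% of the 35116 promoters in the table, and held none. The TBK1 window had its CACGTG from 31 to 26 bases before the RefSeq start. The letters CACGTG occur in 6.34% of all these promoters, and TBK1 was the 1 member with them. It was also the 1 member with the CCAAT box CCAAT, which occurs in 32% of all promoters. The core of the NRF2 response element, TGACNNNGC, was in the windows of CALCOCO2 and TOLLIP, which were not called, and in 10.9% of all promoters. The cAMP response element TGACGTCA, the ATF4 element core TGATGNAA and the AP-1 element TGANTCA were in none of the 7 windows, and occur in 1.65%, 3.14% and 6.57% of all promoters. These are matches of letters in short windows and say nothing about binding. The 3 genes that rose had none of the searched elements in common.

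On the deposited FPKM scale, which divides counts by gene length and library size, the 8 genes differed widely in level. For each of the 8 genes, count, library total and FPKM implied the same length in every library within 1.1%, so the FPKM follow the counts without TMM. This implied length ran from 6.36 kb for OPTN to 20.7 kb for WDFY3, above their GENCODE 29 exon lengths of 5.14 kb and 16.9 kb. In control cells the order of mean FPKM was SQSTM1 at 47.1, NBR1 at 17.0, WDFY3 at 11.3, TAX1BP1 at 9.35, CALCOCO2 at 5.57, TOLLIP at 5.21, OPTN at 4.24 and TBK1 at 3.88. Among neighbours in this order, the libraries of CALCOCO2 and TOLLIP overlapped and the others did not. In Sev-treated cells SQSTM1 stayed first at 66.7 FPKM. WDFY3 at 11.3, TAX1BP1 at 10.8 and NBR1 at 10.1 FPKM followed with overlapping libraries, so NBR1 was no longer separate from them. TBK1 at 5.22 FPKM then lay above CALCOCO2 at 4.45, TOLLIP at 4.43 and OPTN at 3.54 FPKM. The last place of TBK1 in control cells rests on the length used for it. The implied length was 1.21 to 1.24 times the GENCODE 29 exon length for the 7 receptors, but 1.65 times for TBK1. Dividing by the exon length in place of the implied length put TBK1 at 6.41 in control cells, beside TOLLIP at 6.44 and above OPTN at 5.23, and at 8.64 in Sev-treated cells, still above CALCOCO2 at 5.51 and below NBR1 at 12.5. Values per exon length are on another scale than the deposited FPKM and compare only with each other.

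Ratios of FPKM within a library do not depend on how libraries are scaled against each other. SQSTM1 made up 44.3%, 49.5% and 47.7% of the summed FPKM of the 7 receptors in control replicates 1 to 3 and 60.8%, 59.1% and 59.9% in Sev replicates 1 to 3. Its share was thus higher in every Sev library, by 12.8 percentage points between the means. The share of NBR1 went from 17.1% ± 1.96 to 9.09% ± 0.747 (SD, n = 3 each). The shares of OPTN, CALCOCO2 and TOLLIP were also lower in every Sev library than in any control library, which follows in part from the larger share of SQSTM1. The share of TAX1BP1 was 9.36% ± 0.240 in control and 9.73% ± 0.844 in Sev libraries, and these overlap. The summed FPKM of the 7 receptors was between 95.6 and 103 in control and between 108 and 114 in Sev libraries. The ratio of SQSTM1 to NBR1 was 2.30, 3.20 and 2.89 in control replicates 1 to 3 and 6.53, 6.09 and 7.25 in Sev replicates 1 to 3, 2.37 times as high between the means. The ratio of TBK1 to OPTN, kinase to substrate, whose level rests on the same lengths but whose fold between groups does not, went from 0.916 ± 0.0401 to 1.48 ± 0.156 (SD, n = 3 each), with no overlap between the groups. The smallest p that exact permutation of 3 and 3 libraries allows is 0.1, so these ratios are given as a description.

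**Figure D3:**
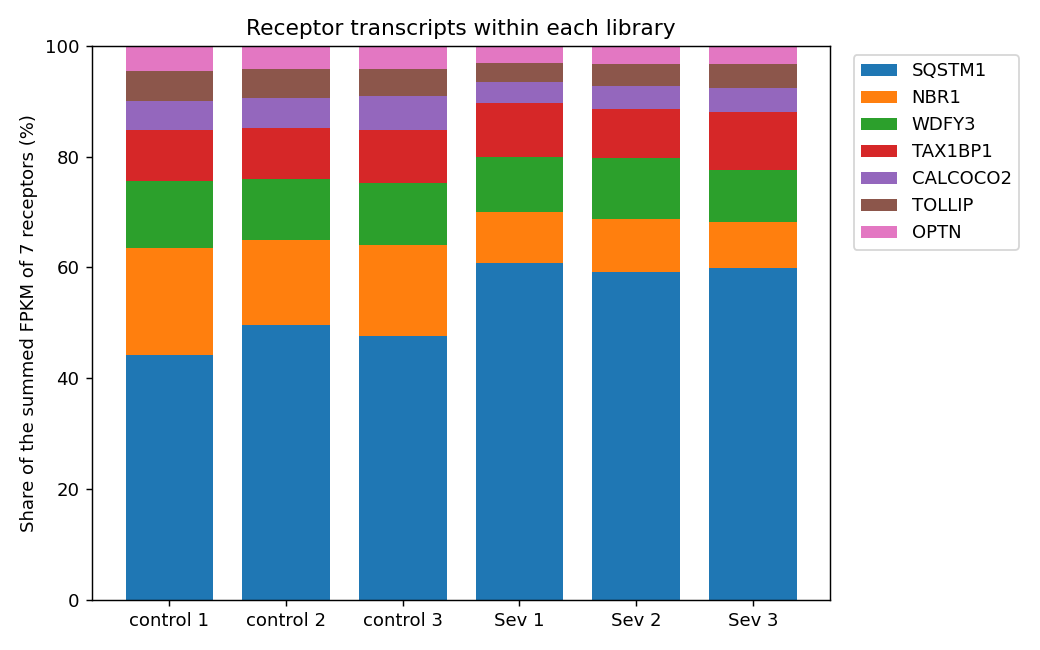
Share of each receptor in the summed FPKM of the 7 receptors (vertical axis, percent) in each of the 6 libraries. The SQSTM1 segment grows from 44.3% to 49.5% in control libraries to 59.1% to 60.8% in Sev libraries, and the NBR1 segment shrinks in all 3.

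Several members overlap other genes, and how the counting treated such reads is not given in the sources used here. By GENCODE 29, SQSTM1 shares 1582 exon bases with MRNIP on the opposite strand, which had 1969 to 4192 counts per library against 15495 to 25644 for SQSTM1, and a log2 fold change of −0.41 (adjusted p = 0.0811). It shares 105 more with MGAT4B, also on the opposite strand (log2 fold change 0.18, adjusted p = 0.113). TBK1 shares 702 exon bases with the antisense gene ENSG00000277895 (AC135279.3). This antisense gene had 38 to 95 counts per library against 1179 to 1730 for TBK1, and was called higher with a log2 fold change of 1.07 (adjusted p = 0.0115). NBR1 shares 463 exon bases with the antisense gene ENSG00000267002 (AC060780.1), which varied from 236 to 898 counts and was not called. TAX1BP1 overlaps JAZF1 and its antisense RNA, OPTN overlaps CCDC3, and WDFY3 overlaps its antisense genes WDFY3-AS1 and WDFY3-AS2, and none of these was called. The pseudogene SQSTM1P1 was at 0 counts in all 6 libraries. If strand was not used in counting, reads of such pairs cannot be told apart in the shared bases.

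For likeness of pattern, log2 CPM was centred over the 6 libraries and the root mean square difference was taken to 10095 other features with a symbol and a mean of at least 10 CPM. Among the nearest to SQSTM1 was LPCAT2, at 0.025 on the log2 scale. Nearest to TBK1 were DHX33 and ZNF655, to TAX1BP1 XPO6 and GTF3C5, and to NBR1 PPP1R21 and SEMA3C. Among the nearest features of the 4 uncalled receptors were HUWE1 for OPTN, PKD1 and PPP2R5A for CALCOCO2, UBAP2 and NUP50 for TOLLIP, and MAST2 and GOLGA4 for WDFY3. With so many features and 6 libraries, near matches arise easily, and none of these names belongs to the 6 pathway lists below.

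The genes around the receptors were taken as 6 lists with 72 genes in all, of which 70 were tested. Of these, 19 were called higher and 13 lower, 45.7% beside the 43.7% of all features, with a median log2 fold change of 0.10. Under library size only, 11 were higher and 18 lower. MAP1LC3C and CGAS were not tested, at 0 to 6 and 2 to 16 counts per library. The counts and medians below are descriptions of each list.

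The ATG8 genes, whose proteins the receptors bind, held 1 call. Of 6 tested, 0 were called higher and 1, GABARAPL2, was called lower, with a log2 fold change of −0.26 (adjusted p = 0.0407). In all 6 analyses that left out a library this call was lost, with adjusted p-values from 0.0705 to 0.112. At an unadjusted p under 0.05, 1 was higher, GABARAP, with a log2 fold change of 0.23 (adjusted p = 0.0547), and DESeq2 called 0 higher and 0 lower. MAP1LC3B, which encodes LC3B, varied between 60.2 and 130 CPM within the control libraries, and the values of MAP1LC3B and its near-identical copy MAP1LC3B2 are uncertain. The median log2 fold change of the family was 0.22.

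Among the adaptors, partner kinase and inputs of TBK1, 1 of 9 tested was called higher and 3 lower, with a median log2 fold change of −0.26. MAVS, the mitochondrial adaptor through which sensing of viral RNA reaches TBK1, fell from 241 ± 13.6 to 127 ± 8.68 CPM (SD, n = 3 each), a log2 fold change of −0.92 ± 0.085 (SE, adjusted p = 0.000238). STING1, the adaptor of the DNA sensing route, was at 33.2, 31.8 and 38.8 CPM in control replicates 1 to 3 and at 20.8, 21.9 and 20.4 CPM in Sev replicates 1 to 3, with a log2 fold change of −0.72 (adjusted p = 0.00148). IKBKE, the kinase most closely related to TBK1, fell with a log2 fold change of −0.74 (adjusted p = 0.00559). These 3 genes were called lower in all 15 alternatives, and so moved opposite to TBK1. TICAM1, the adaptor of Toll-like receptor 3, rose by 0.44 on the log2 scale (adjusted p = 0.0204), and this call was lost in 4 of the 6 analyses without a library and with library size only. The adaptors TANK, AZI2 and TBKBP1, which hold TBK1 in separate complexes, and its substrate IRF3 were not called. TANK (log2 fold change 0.37, adjusted p = 0.056) and IRF3 (−0.39, adjusted p = 0.059) lay just past the limit. TRAF3 was not called either (log2 fold change 0.91, adjusted p = 0.0549), with Sev replicate 3 at 57.6 CPM far above the other Sev libraries at 24.3 and 27.0 CPM. At an unadjusted p under 0.05 in edgeR's test, 3 of the 9 were higher and 4 lower, and DESeq2 called 3 higher and 3 lower.

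Of the 9 genes of the initiation machinery that is drawn to receptor-bound cargo, 3 were called higher and 1 lower, with a median log2 fold change of 0.19. RB1CC1 (FIP200), the scaffold to which several receptors bind directly, rose from 97.3 ± 3.08 to 123 ± 9.05 CPM (SD, n = 3 each), a log2 fold change of 0.34 (adjusted p = 0.0121). Without TMM it lay at the limit, at an adjusted p of 0.0499 with library size only in edgeR, and its call was lost with limma on log2(FPKM + 1), with a filter (adjusted p = 0.0504) and without one (adjusted p = 0.0515). ATG101, a partner of RB1CC1 in the same complex, rose with a log2 fold change of 0.45 (adjusted p = 0.0108). The call of WIPI2 (log2 fold change 0.28, adjusted p = 0.0196), which places the ATG8 conjugation complex on the membrane, was lost with library size only and without control replicate 2 or control replicate 3. ULK2, a kinase of the complex, fell with a log2 fold change of −0.50 (adjusted p = 0.00573), and ULK1, ATG13, ATG9A, ATG16L1 and ATG5 were not called. Of these, ATG13 lay just past the limit (log2 fold change 0.47, adjusted p = 0.0542).

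Of the 18 genes of the ubiquitin signal and its regulators, 7 were called higher and 3 lower, with a median log2 fold change of 0.099. The ubiquitin genes UBB and RPS27A were called higher. RPS27A, which encodes ubiquitin fused to a ribosomal protein, rose by 0.49 on the log2 scale (adjusted p = 0.00655), and held its call in all 15 alternatives. UBB rose by 0.26 (adjusted p = 0.0386) and lost its call in 11 of the 15, among them library size only (0.12) and 5 of the 6 analyses without a library (adjusted p from 0.0532 to 0.136). Pseudogene copies and the repeats within UBB make these counts uncertain. TRAF6 and CYLD were called higher as well (log2 fold change 0.33 and 0.21, adjusted p = 0.0214 and 0.0426). With library size only neither call held (0.19 and 0.070, adjusted p = 0.181 and 0.446). TNFAIP3, which encodes A20, the partner of TAX1BP1, passed the study threshold. It was at 8.18, 8.25 and 7.60 CPM in control replicates 1 to 3 and at 16.2, 23.3 and 14.3 CPM in Sev replicates 1 to 3, with a log2 fold change of 1.16 ± 0.19 (SE, adjusted p = 0.00229), and without Sev replicate 2 it was 0.93.

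Among the genes of this list that fell were RBCK1 and LRSAM1. RBCK1 (HOIL-1), of the complex that makes linear ubiquitin chains, fell from 34.2 ± 1.22 to 18.5 ± 0.389 CPM (SD, n = 3 each), a log2 fold change of −0.88 (adjusted p = 0.000307). Its complex partners RNF31 and SHARPIN were not called. LRSAM1, a ligase that marks intracellular bacteria, fell with a log2 fold change of −0.82 (adjusted p = 0.00229). Both were called lower in all 15 alternatives.

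Of the 11 aggregate and trafficking partners, 4 were called higher and 2 lower, with a median log2 fold change of 0.17. IRAK1, which TOLLIP restrains, rose from 272 ± 49.4 to 465 ± 21.6 CPM (SD, n = 3 each), a log2 fold change of 0.78 (adjusted p = 0.00291). VCP, the segregase that extracts ubiquitin-marked proteins, and BAG3, a cochaperone that delivers clients to SQSTM1, rose by 0.48 (adjusted p = 0.00574) and 0.41 (adjusted p = 0.00517) on the log2 scale. LGALS8, the galectin that recruits CALCOCO2 to broken vacuoles, rose by 0.26 (adjusted p = 0.0253), a call that was lost in 4 of the 6 analyses without a library and with library size only. HDAC6, a deacetylase that binds ubiquitin and moves aggregates along microtubules, fell from 45.9 ± 1.64 to 30.5 ± 3.83 CPM (SD, n = 3 each; log2 fold change −0.59, adjusted p = 0.00418). UBQLN2 was lower with a log2 fold change of −0.28 (adjusted p = 0.0472), and lost its call in 5 of the 6 analyses without a library. The motor MYO6, the partner of OPTN, TAX1BP1 and CALCOCO2, was not called.

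Among 17 other selective autophagy receptors, 4 were called higher and 3 lower, with a median log2 fold change of −0.097. CALCOCO1, an endoplasmic reticulum receptor related to CALCOCO2 and TAX1BP1, was at 50.1, 38.7 and 49.4 CPM in control replicates 1 to 3 and at 18.5, 23.2 and 14.6 CPM in Sev replicates 1 to 3. The groups were far apart, with a log2 fold change of −1.29 ± 0.18 (SE, adjusted p = 0.00119), the 1 gene of this list past the study threshold. The 3 related genes thus differed in sign, with TAX1BP1 higher, CALCOCO1 lower and CALCOCO2 not called. NCOA4, the receptor for ferritin, rose from 118 ± 1.55 to 157 ± 7.87 CPM (SD, n = 3 each), a log2 fold change of 0.41 (adjusted p = 0.00318). TEX264, an endoplasmic reticulum receptor, and NUFIP1, which is linked to the removal of ribosomes, rose by 0.48 (adjusted p = 0.00468) and 0.64 (adjusted p = 0.0119), the latter not called with limma on log2(FPKM + 1) without a filter (adjusted p = 0.0837). PHB2, of the inner mitochondrial membrane, rose by 0.38 (adjusted p = 0.0143), but was not called with library size only (0.24, adjusted p = 0.12). CCPG1, another endoplasmic reticulum receptor, fell with a log2 fold change of −0.44 (adjusted p = 0.0127), which without Sev replicate 1 was −0.41 (adjusted p = 0.0526). BNIP3, a mitochondrial receptor, was lower too (log2 fold change −0.49, adjusted p = 0.0397), but lost its call in 7 of the 15 alternatives, 5 of them analyses without a library (adjusted p from 0.0648 to 0.119).

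**Figure D4:**
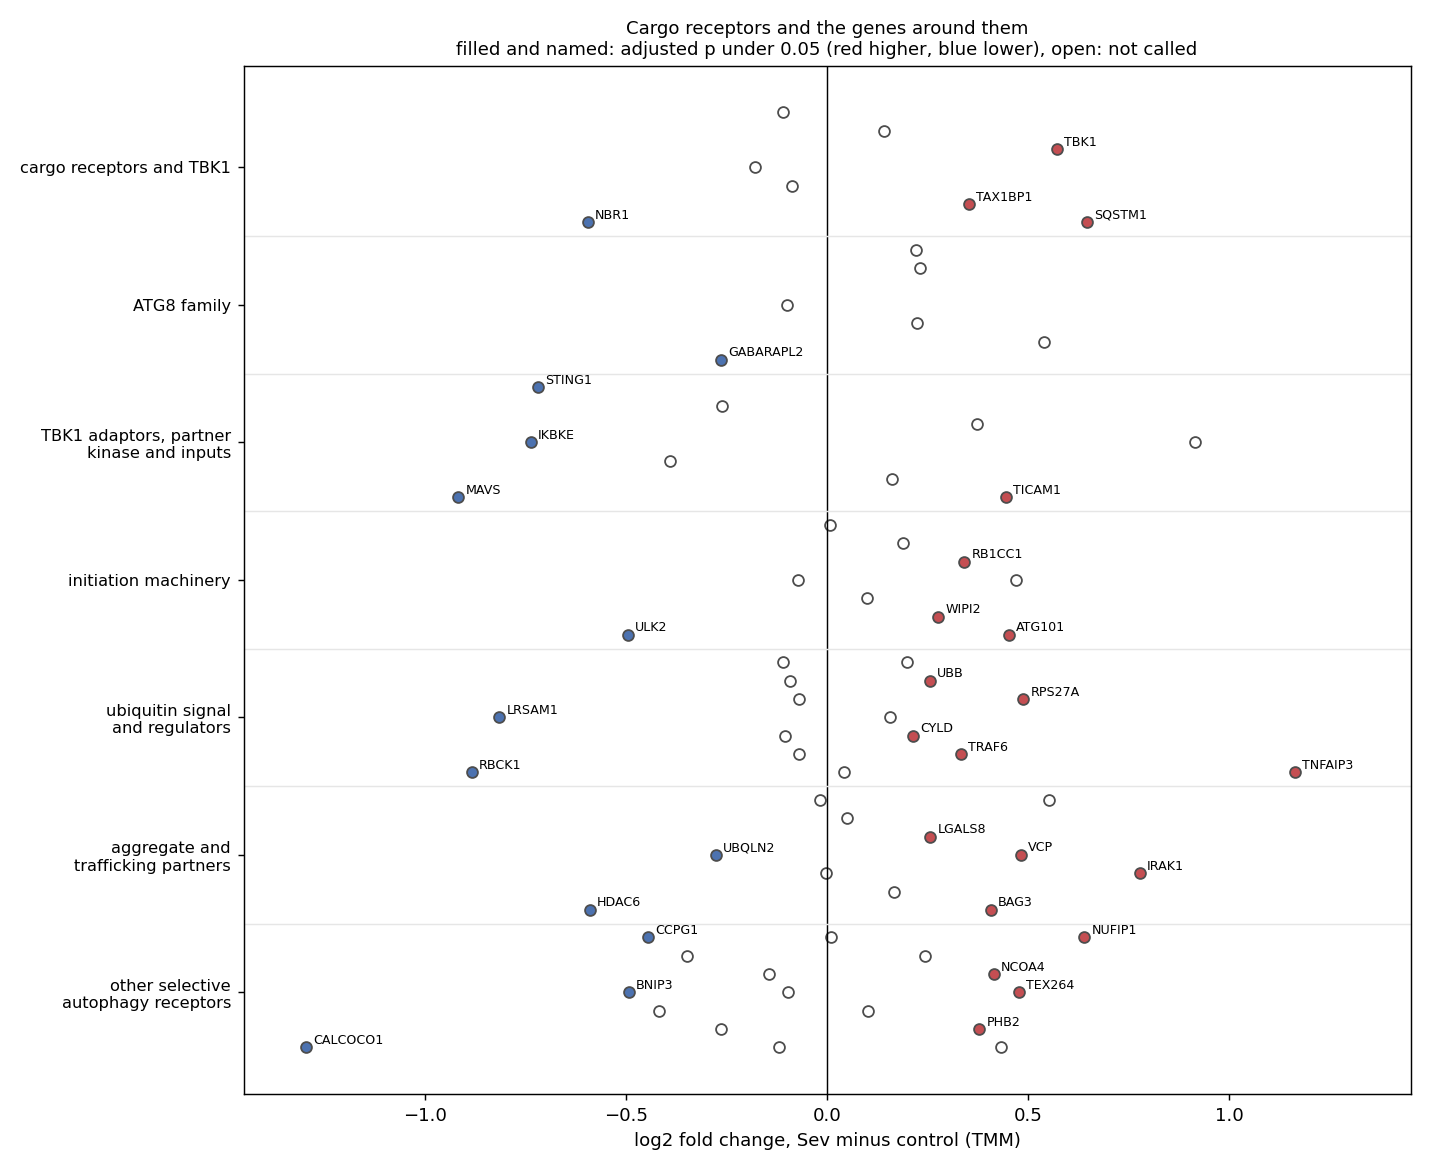
Log2 fold change, Sev minus control (horizontal axis), of the tested genes reported here among the cargo receptors with TBK1 and the 6 pathway lists (rows, with points spread vertically for legibility). Filled, named points had an adjusted p under 0.05, and called genes lie on both sides of 0 in every row except the ATG8 family, where GABARAPL2 is the 1 call.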

How the data were processed

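Total RNA of U251 cells was isolated with TRIzol and made into libraries with strand-specific adapters, 3 control and 3 Sev, grouped by their labels. The protocol lists several Sev concentrations without assigning them, and the paper names 5.1% for the sequenced cells. The authors deposited raw counts per gene, together with FPKM for each feature. The submitters' processing notes name bcl2fastq 2.19, featureCounts and the build hg18. The aligner, annotation and counting settings are not given in the sources used here. Positions are those of GENCODE 29 (GRCh38), joined through Ensembl identifiers, and symbols matched 60295 of 60564 of these.

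After filterByExpr and TMM, counts were fitted with glmQLFit and tested with glmQLFTest in edgeR 4.0.16 (R 4.3.3), Sev against control without covariates, and p-values were adjusted over 27514 features. The test was also run on simulated data with few changed genes, where it missed most changes of 1.5-fold. A gene that was not called may thus have changed. Standard errors were derived from each log2 fold change and the root of its F statistic. CPM hold no prior count, except for likeness (prior count 2). Replicates of 1 group differed beyond sampling noise in 49% to 66.6% of 15608 genes with a mean of at least 100 counts. This comparison scaled libraries by totals, without TMM, so differences in composition between replicates count in it. Promoters and figures used Python 3.11.15.

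There were 15 alternatives. On counts these were scaling by library size only or by the size factors of DESeq2, its Wald test (version 1.42.0), no filter, a minimum of 10 counts in every library, a replicate block, and each library left out. On the deposited FPKM, limma 3.58.1 was run on log2(FPKM + 1) and log2(FPKM + 0.1) for features that reached 0.5 FPKM in 3 libraries, and on log2(FPKM + 1) without a filter. The 8 genes and the lists were chosen with earlier results of these data known. Named by rule were, from each list, up to 6 called genes with the smallest p, genes not tested, and genes overlapping or nearest in pattern to a member. Other list genes were named after their values were seen. Some genes are not reported here.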

Additional observations from a re-analysis of the deposited data

How the results depend on the processing

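The calls of SQSTM1, TBK1 and NBR1 held in all 15 alternatives. Of the 32 called list genes, 17 kept their call in all 15, 15 lost it in at least 1, and 0 changed sign. Members called lower numbered 1 with TMM and 2 with library size only, limma on log2(FPKM + 1) and limma on log2(FPKM + 0.1). List genes called higher numbered 19 with TMM, 11 with library size only, 11 with limma on log2(FPKM + 1), 12 on log2(FPKM + 0.1) and 8 on log2(FPKM + 1) without a filter. With a library left out they ran from 13 to 21 higher and from 10 to 13 lower, and the members stayed at 3 higher and 1 lower. WDFY3 changed sign in 4 alternatives, to −0.0041 with library size only, −0.0099 on log2(FPKM + 1) with or without a filter, and −0.011 on log2(FPKM + 0.1). All 4 use library totals in place of TMM. With the replicate block, the calls were 3 members higher and 1 lower, and 15 list genes higher and 10 lower. Deviations of same-numbered libraries correlated at −0.035, 0.0048 and 0.059 over 19446 genes, and those of differently numbered libraries at −0.096 to 0.082. The labels do not say whether replicate numbers mark pairs, and so few correlations cannot settle it. MAP1LC3C and CGAS had too few counts at this depth to be tested.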
